A study of Drosophila melanogaster with 17 samples.

Results

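The genes described here are those for sugar use by fly glia, from the uptake and splitting of trehalose through glycolysis to lactate. They are *Treh*, *Tret1-1*, *Hex-A*, *Pgi*, *Pfk*, *Tpi*, *Gapdh1*, *Gapdh2*, *Pyk* and *Ldh*. The members were listed by name, so that 10 of the 13479 genes in the table were followed, and no threshold on a measured value was part of the rule. *Pyk* is listed in the table under an older FlyBase identifier, FBgn0003178.

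The study asked whether a closed head injury (dCHI) changes the RNAs that glia translate. Glial TRAP-seq was used, in which ribosomes carrying a GFP-tagged RpL10A protein are pulled down from whole heads and the RNA bound to them is sequenced. In all groups the tagged ribosomal protein was driven by *repo-GAL4*, a pan-glial driver, so different kinds of glia were sampled together. TBI flies had received several strikes to the head from a solenoid and sham flies came from the same parents and were handled in parallel without strikes.

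The 6 groups were young adult sham and TBI flies 1, 3 and 7 days after injury, all taken at ZT0, the time of lights-on. Each group had 3 libraries of pooled heads, except that TBI on day 7 had 2, after the authors set replicate 3 aside. The sample labels call the time points 3, 6 and 10, whereas the supplementary tables call them 1, 3 and 7 days after TBI, and the latter numbering is used here. The labels record female flies and the paper male flies, and *Yp1* and *Yp3*, yolk protein genes of females, were above 1000 TPM in every library. The third such gene, *Yp2*, was at 61.2 TPM in 1 sham library of day 7 (replicate 1) and at most 0.983 TPM in every other library. The labels do not say whether the libraries of a group came from separate cohorts of flies, so p-values rest only on how these libraries varied. In the separate fits of days 1 and 3, that is the spread of the differences between sham and TBI libraries of the same replicate number. Values are in TPM, a relative level adjusted for transcript length and library total. TPM keeps no read depth, so the depth behind each value is unknown. The listed genes added up to between 832800 and 854953 TPM per library, and between 9880 and 11350 genes were above 0.

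Trehalose is the main sugar of fly blood. Glia of the blood-brain barrier take it up with the transporter Tret1-1, trehalase splits it into glucose, and glycolysis turns the glucose into pyruvate. Lactate dehydrogenase converts pyruvate into lactate, and glial glycolysis is known to supply neurons with lactate and alanine.

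The levels of 14 glial markers were read in every library. All 14 were above 0 in each, and they summed to between 2332 and 6977 TPM. These libraries include no whole-head input, so the enrichment of glial RNAs could not be measured here. The paper measured it against whole-head inputs and reported *alrm*, *Gli* and *repo* as enriched. It found no significant change for the neuronal genes *elav* and *nSyb*. RNAs of other cells of the head were present as well. The 12 photoreceptor markers summed to between 26920 and 61000 TPM, and the 10 neuronal markers to between 736.5 and 1525 TPM. Most of the photoreceptor sum was *ninaE*, at 22565 to 52558 TPM. *Gs2*, at 1152 to 4145 TPM, was the most abundant glial marker, and *nSyb*, at 387.3 to 775.4 TPM, the most abundant neuronal one. The sums therefore do not compare amounts of RNA between cell types. Digestive enzymes of the midgut stood apart in single libraries. Their sum ranged between 432.6 and 838.6 TPM among TBI libraries on day 1, was 661.8 TPM in 1 sham library of day 3 (replicate 2) and 736.6 TPM in 1 TBI library of day 7 (replicate 1), and at most 4.27 TPM in every other library.

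In sham flies, 8 of the 10 genes were abundant and 2 were not. The order of mean levels over the 9 sham libraries ran from *Gapdh1*, at 676.9 ± 77.2 TPM (SD, n = 9), through *Gapdh2*, *Pyk*, *Treh*, *Tpi*, *Pgi*, *Tret1-1* and *Hex-A* to *Pfk* at 61.5 ± 13.1 TPM and *Ldh* at 10.6 ± 2.82 TPM. *Gapdh1* was above *Gapdh2*, and *Gapdh2* above *Pyk*, in 9 of 9 sham libraries, and the steps from *Hex-A* to *Pfk* and from *Pfk* to *Ldh* also held in 9 of 9. The genes between *Pyk* and *Hex-A* were not so ordered. *Pyk* was above *Treh* and *Tpi* above *Pgi* in 7 of 9 libraries, *Treh* was above *Tpi* in 5 of 9, and *Pgi* above *Tret1-1* and *Tret1-1* above *Hex-A* in 6 of 9, so these neighbours did not differ beyond their spread. The order is of levels per length, and *Gapdh1* and *Gapdh2* are close copies, so that the reads shared between them may be split inexactly.

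The spread also differed between the genes. *Pyk*, the last enzyme of glycolysis, varied least over the sham libraries, with a coefficient of variation of 8.98%, followed by *Pgi* with 9.01%. *Ldh* varied most, with 26.7%, followed by *Pfk* with 21.3% and *Treh* with 20.4%. *Ldh* and *Pfk* were also the least abundant of the 10 genes, and the sham libraries of all days were pooled for these values.

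**Figure D1:**
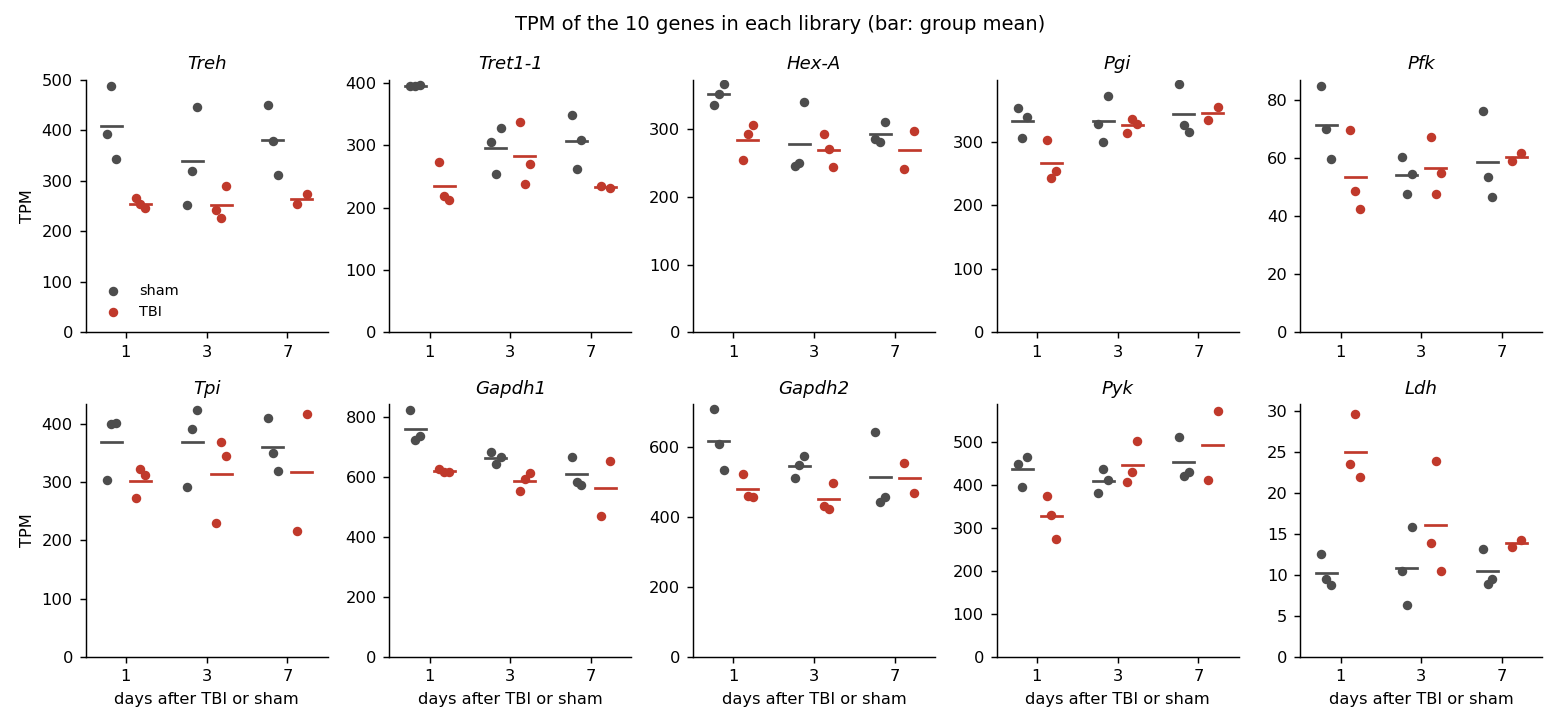
TPM of the 10 genes in every library, with 1 panel per gene. The x axis gives days after injury, points are libraries (grey sham, red TBI), short bars are group means, and each y axis starts at 0. On day 1 the TBI points of *Ldh* lie between 22.0 and 29.7 TPM and the sham points between 8.83 and 12.5 TPM, and the TBI points of *Tret1-1* and *Treh* lie below all sham points of that day.

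One day after TBI, *Ldh* was higher and the other 9 genes were lower. *Ldh* rose 2.44-fold between group means, from a low level, while *Tret1-1* fell to 0.594 of the sham mean and *Treh* stood at 0.625 of it. The 7 genes between hexokinase and pyruvate kinase stood at 0.748 to 0.822 of their sham means. A gene was called where its log2 fold change was at least 0.6 either way and its adjusted p at most 0.1. By this rule 2 of the 10 genes were called, against 2.86% of the 12085 genes tested. *Ldh* was 1 of 10 called higher, where 2.19% of all genes were, and *Tret1-1* 1 of 10 called lower, where 0.67% were.

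*Ldh* (FBgn0001258, chromosome 3L, 6259105 to 6262694, minus strand, BDGP6 build as for all positions given) encodes lactate dehydrogenase. The sham libraries of day 1 held 12.5, 9.50 and 8.83 TPM, and the TBI libraries 23.5, 29.7 and 22.0 TPM. Every TBI library lay above every sham library. The log2 fold change on the scale of log2(TPM + 1) was 1.21 (SE 0.18, adjusted p = 0.0840, limma).

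*Tret1-1* (FBgn0050035, chromosome 2R, 11665768 to 11674782, plus strand) encodes the trehalose transporter. Its sham libraries of day 1 were nearly identical, at 394.3, 395.4 and 395.9 TPM, and its TBI libraries were at 272.7, 219.2 and 212.7 TPM. The groups did not overlap, and the log2 fold change was −0.76 (SE 0.11, adjusted p = 0.0807, limma).

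Neither call held in every setting. With replicate 1, 2 or 3 left out of both groups in turn, 2 libraries per group remained. The adjusted p of *Ldh* was then between 0.113 and 0.325 and that of *Tret1-1* between 0.132 and 0.338 (limma). In each fit 0 of the 10 genes were called, beside 214 of 11571, 10 of 11737 and 72 of 11935 genes tested. The log2 fold changes in these fits were 1.04 to 1.39 for *Ldh* and −0.87 to −0.69 for *Tret1-1*.

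*Treh* (FBgn0003748, chromosome 2R, 21074018 to 21088945, plus strand) encodes trehalase. It was at 392.7, 487.4 and 343.7 TPM in sham libraries and at 265.8, 253.8 and 245.3 TPM in TBI libraries of day 1. The TBI libraries were close to each other and all below the sham libraries. The log2 fold change was −0.66 (SE 0.12), with an adjusted p of 0.120 (limma), so *Treh* was past the fold threshold and not called. With genes of at least 1 TPM on average alone in the fit, the adjusted p was 0.0448 and *Treh* was called.

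The first steps of glycolysis gave smaller differences, none of them called. *Hex-A* (FBgn0001186, chromosome X, 9585675 to 9589813, plus strand) encodes hexokinase, which phosphorylates glucose. It was at 335.3, 352.1 and 366.9 TPM in sham and at 254.5, 293.1 and 305.7 TPM in TBI libraries, without overlap, with a log2 fold change of −0.31 (SE 0.08). *Pgi* (FBgn0003074, chromosome 2R, 8910900 to 8914069, minus strand), whose product turns glucose 6-phosphate into fructose 6-phosphate, was at 352.8, 305.8 and 338.8 TPM in sham and at 301.8, 242.0 and 253.4 TPM in TBI libraries. Its highest TBI library stood just under its lowest sham library, and the log2 fold change was −0.33 (SE 0.08). *Pfk* (FBgn0003071, chromosome 2R, 10109740 to 10117457, plus strand) encodes phosphofructokinase, a main control point of glycolysis. It was at 84.9, 70.2 and 59.6 TPM in sham and at 69.7, 48.6 and 42.4 TPM in TBI libraries, and here the groups overlapped, with a log2 fold change of −0.43 (SE 0.09).

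The later steps followed the same direction. *Tpi* (FBgn0086355, chromosome 3R, 30132981 to 30134599, minus strand) encodes the enzyme that interconverts the triose phosphates. It overlapped between the groups, at 303.4, 400.1 and 401.6 TPM in sham and 273.1, 323.1 and 312.1 TPM in TBI libraries, with a log2 fold change of −0.27 (SE 0.08). *Gapdh1* (FBgn0001091, chromosome 2R, 7791901 to 7793380, minus strand) and *Gapdh2* (FBgn0001092, chromosome X, 15868145 to 15869661, plus strand) encode glyceraldehyde 3-phosphate dehydrogenase. *Gapdh1* was at 822.9, 720.8 and 735.2 TPM in sham and at 626.5, 616.1 and 615.7 TPM in TBI libraries. *Gapdh2* was at 707.8, 608.9 and 534.4 TPM in sham and at 523.8, 460.3 and 455.9 TPM in TBI libraries. Neither copy overlapped between the groups, and their log2 fold changes were −0.29 (SE 0.09) and −0.36 (SE 0.09). *Pyk* (chromosome 3R, 22367536 to 22372746, plus strand), which encodes pyruvate kinase, was at 448.6, 394.8 and 464.6 TPM in sham and at 374.2, 330.8 and 274.0 TPM in TBI libraries. It did not overlap either, and its log2 fold change was −0.42 (SE 0.14). The adjusted p of these 7 genes was between 0.147 and 0.242 (limma).

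Over the 10 genes, the TBI libraries all lay below the sham libraries for 7, against 5.95% of all genes tested, and all above for 1, against 10.1%. All 10 had an unadjusted p under 0.05, as did 18.2% of all genes tested. The median log2 fold change was −0.34, beside 0.021 over all genes tested and −0.074 over the 5349 genes with a mean of at least 10 TPM. The TPM of the 10 genes together came to 3650 to 3855 in the sham libraries and 2739 to 2986 in the TBI libraries of day 1.

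Other RNAs moved with the injury on the same day, and their part in these differences was not tested. Of the 14 glial markers, 13 were lower and 4 were called lower, namely *alrm*, *CG6126*, *Mdr65* and *wrapper*, with a list median of −0.54. Their summed level was 4829 to 6977 TPM in sham and 3621 to 4825 TPM in TBI libraries, and none was at 0. The log2 fold change was lower than that of *Tret1-1* in 3 of the 14 markers and lower than that of *Treh* in 4, while 9 to 11 of the 14 stood below each of the 7 glycolytic enzymes. *Ldh* stood above all 14. In these whole pull-downs, fewer glia, less RNA per glial cell and a smaller glial share of the pulled-down RNA cannot be told apart.

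Of the other marker lists, all 12 photoreceptor markers were lower on day 1, with a median of −0.49, and the neuronal markers had a median of 0.029. The midgut enzymes were high in all 3 TBI libraries of day 1 and summed to at most 1.31 TPM in the sham libraries of that day, so no fit of day 1 without them could be made. They were higher in 9 of 9 measured genes, with 7 called and a median of 4.14. The yolk protein genes *Yp1*, *Yp2* and *Yp3*, products of female fat body, summed to 12850 to 21700 TPM in sham and 5310 to 12210 TPM in TBI libraries, and limma called 0 of the 3, with 2 at an unadjusted p under 0.05. Muscle markers were higher in 8 of 9 genes, none called, with a median of 0.26 and a sum of 959.5 to 1012 TPM in sham and 1053 to 1563 TPM in TBI libraries. Oenocyte and cuticle markers went both ways, with 3 of 5 tested higher and 2 lower, and their sum overlapped, at 1034 to 1906 TPM in sham and 817.0 to 1648 TPM in TBI libraries. Among them *Cyp4g1* was called higher, with a log2 fold change of 5.75, while *desat1*, the most abundant, was at −0.60 (adjusted p = 0.108, limma) and was not called.

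**Figure D2:**
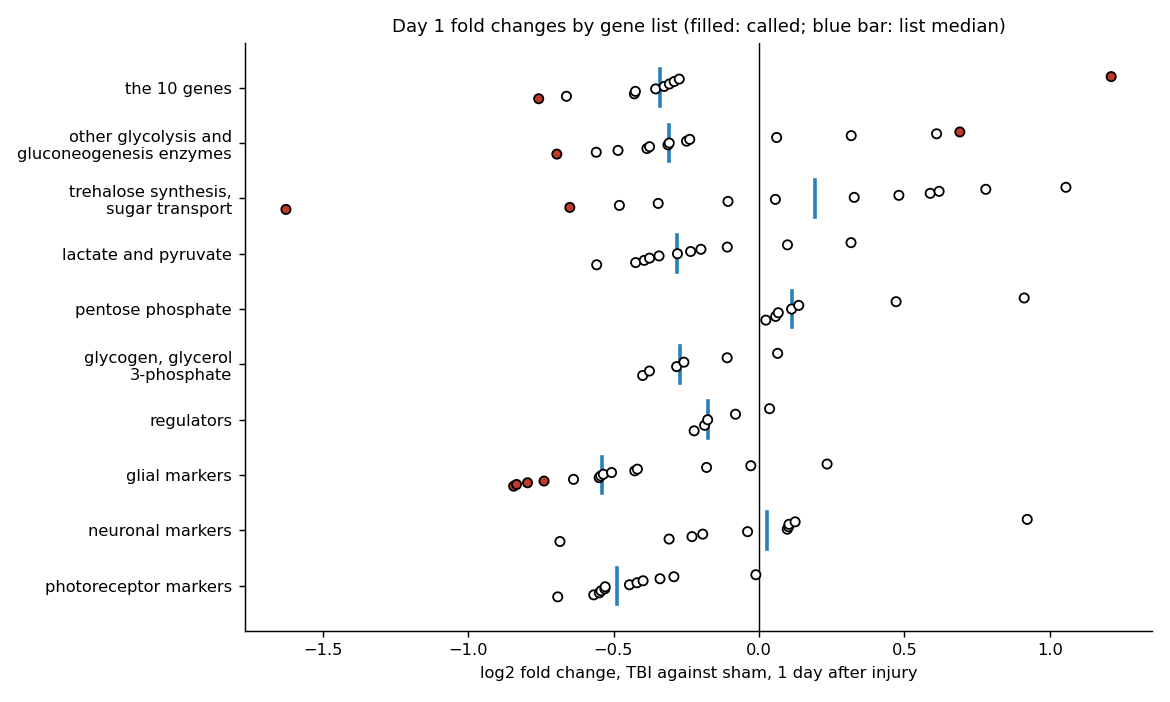
Log2 fold change of every tested gene 1 day after TBI, by gene list. The x axis is TBI against sham on the log2(TPM + 1) scale, filled points were called and blue bars are list medians. The bar of the 10 genes is at −0.34 and that of the glial markers at −0.54, while *Ldh* lies alone at 1.21.

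The rest of the sugar pathways on day 1 was taken from lists fixed by gene name. Of 13 further genes of glycolysis and gluconeogenesis that could be tested, 9 were lower and 4 higher, and 1 was called in each direction. *Pfrx*, which makes and removes the activator of phosphofructokinase, was called lower (−0.69, adjusted p = 0.0830, limma). *Pepck1*, which encodes an enzyme of gluconeogenesis, was called higher (0.69, adjusted p = 0.0830, limma). *Pepck1* was at 62.0 to 75.7 TPM in sham and 94.0 to 129 TPM in TBI libraries. The most abundant genes of the list, *Eno* (enolase) and *Ald1* (aldolase), had log2 fold changes of −0.31 and −0.24 and were not called.

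Among 12 genes of trehalose synthesis and sugar transport, 2 were called, both lower. *pippin*, a sugar transporter, had a log2 fold change of −0.65 (adjusted p = 0.0696, limma) and was at 62.4 to 88.5 TPM in sham and 39.8 to 59.5 TPM in TBI libraries. *tobi*, which encodes an α-glucosidase under insulin control, had a log2 fold change of −1.63 (adjusted p = 0.0795, limma), and its libraries overlapped, at 10.7 to 31.2 TPM in sham and 2.33 to 14.0 TPM in TBI. *Tps1*, the trehalose synthase, was at −0.35 and *nebu* at −0.11, and neither was called.

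No gene was called in the 4 remaining lists. In the limma fit 3 of 11 genes of lactate and pyruvate transport and entry into mitochondria, 0 of 7 of the pentose phosphate branch, 2 of 6 of glycogen and glycerol 3-phosphate and 0 of 5 regulators had an unadjusted p under 0.05. Of the first, 9 were lower. They included *Pdk*, the kinase that switches pyruvate dehydrogenase off, at −0.56 (adjusted p = 0.102, limma), and *Pdha*, a subunit of that enzyme, at −0.23. All 7 genes of the pentose phosphate branch had log2 fold changes above 0, with a list median of 0.11, and *CG8036* (transketolase) was at 0.024 and *Taldo* (transaldolase) at 0.066. *Zw*, which encodes glucose 6-phosphate dehydrogenase and is named here for its value, had 0.91 (SE 0.61) and was listed at 3.83, 0 and 0 TPM in sham and at 1.95, 3.50 and 1.43 TPM in TBI libraries. *GlyP*, which breaks down glycogen, was at −0.38 and *Pgm1* (phosphoglucomutase) at −0.11. The regulators *bigmax* and *ERR* were at −0.22 and −0.19. No gene of these 6 lists was called on day 3, on day 7 or over all days. In the limma fits of day 3, day 7 and all days, 5 of 53, 2 of 53 and 13 of 55 had an unadjusted p under 0.05. Over all genes tested the shares were 5.81%, 4.21% and 14.2%.

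On day 3 after TBI the TBI libraries overlapped with the sham libraries for 8 of the 10 genes. In limma 0 of the 10 were called and 1 had an unadjusted p under 0.05, and 0% of the 11835 genes tested were called (688 with an unadjusted p under 0.05). *Tret1-1* was at 305.7, 253.9 and 328.2 TPM in sham and at 337.3, 238.1 and 270.3 TPM in TBI libraries, which overlapped (log2 fold change −0.077, SE 0.12). *Ldh* was at 10.5, 6.36 and 15.8 TPM in sham and at 13.9, 23.9 and 10.5 TPM in TBI libraries, which also overlapped (0.53, SE 0.49). Its lowest sham and highest TBI library are those numbered 2, and the sham one is the library with midgut enzymes. Under the replicate block, leaving out that sham library also takes the TBI library of the same number out of the comparison, and the log2 fold change was then −0.087. Without the block, and with only the sham library left out, it was 0.22, an alternative chosen after seeing the data.

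*Treh* on day 3 was at 251.3, 320.3 and 445.9 TPM in sham and at 241.4, 225.6 and 290.4 TPM in TBI libraries. The groups overlapped by the lowest sham library, and the log2 fold change was −0.39 (SE 0.14, adjusted p = 0.815, limma). Both copies of *Gapdh* still lay without overlap below sham, with *Gapdh1* at 643.2 to 681.6 TPM in sham and 553.0 to 612.7 TPM in TBI, and *Gapdh2* at 512.9 to 573.8 TPM in sham and 422.6 to 497.1 TPM in TBI. They were 2 of the 10 genes, against 3.13% of all genes lower without overlap, and 0 of 10 were higher without overlap, against 4.35%. The log2 fold change was −0.18 for *Gapdh1* and −0.28 for *Gapdh2*, the gene with an unadjusted p under 0.05. *Pfk* (0.056) and *Pyk* (0.12) were higher in TBI, and *Hex-A* (−0.040), *Pgi* (−0.028) and *Tpi* (−0.24) lower, all with overlap. On this day 12 of the 14 glial markers were lower, with a median of −0.24. All 9 muscle markers were higher, none called and 5 at an unadjusted p under 0.05, with a median of 0.30 and a sum of 806.7 to 1142 TPM in sham and 1143 to 1335 TPM in TBI libraries, and the part of either list in the levels above was not tested.

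**Figure D3:**
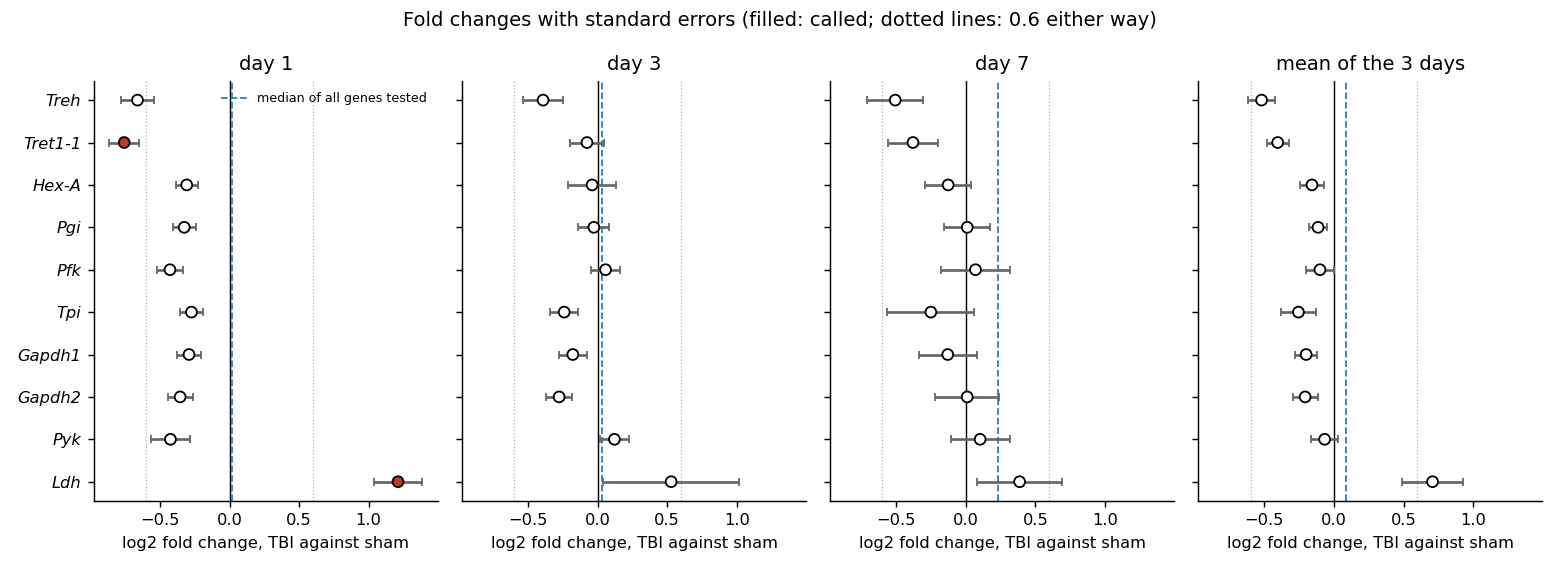
Log2 fold change of the 10 genes on each day and as the mean of the 3 days. The x axis is TBI against sham on the log2(TPM + 1) scale, bars are standard errors, filled points were called, dotted lines mark 0.6 either way and the dashed line is the median of all genes tested. *Treh* lies left of 0 in all 4 panels, at −0.66, −0.39, −0.51 and −0.52, and *Ldh* right of it.

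On day 7 after TBI, *Treh* and *Tret1-1* were again without overlap below sham. *Treh* was at 450.4, 378.2 and 312.0 TPM in sham and at 253.9 and 274.8 TPM in TBI libraries. *Tret1-1* was at 347.8, 262.3 and 308.0 TPM in sham and at 234.6 and 232.1 TPM in TBI libraries. *Ldh*, at 13.1, 8.92 and 9.51 TPM in sham and 13.5 and 14.3 TPM in TBI libraries, lay just above.

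These were 2 of 10 genes lower without overlap, against 2.41% of all genes, and 1 of 10 higher, against 15.1%. In limma 0 of the 10 genes were called and 0 had an unadjusted p under 0.05, and 0% of the 11966 genes tested were called (504 at that p). On the log2(TPM + 1) scale the log2 fold changes were −0.51 (SE 0.20, adjusted p = 0.717) for *Treh*, −0.38 (SE 0.18, adjusted p = 0.717) for *Tret1-1* and 0.39 (SE 0.30, adjusted p = 0.717) for *Ldh*. The median gene was 0.23 higher in TBI on this day, and beside that median *Treh* stood at −0.74, *Tret1-1* at −0.61 and *Ldh* at 0.15.

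The enzymes between *Hex-A* and *Pyk* overlapped between sham and TBI on day 7, with log2 fold changes from −0.25 for *Tpi* to 0.10 for *Pyk*. Of the 10 genes, 5 were lower on this day as deposited, and 9 of 10 with either scaling, which brought the median of all genes to 0.044. The TBI libraries of *Tpi* were far apart, at 216.4 and 417.5 TPM, with the sham libraries between 319.4 and 410.1 TPM. The lower of them is the library with midgut enzymes, and without it the log2 fold change of *Tpi* was 0.22. That of *Gapdh1* went from −0.13 to 0.11 in the same way. On day 7 all 14 glial markers were lower, with a median of −0.47, and the neuronal markers had a median of 0.49. All 9 muscle markers were higher, none of them called, with a median of 0.57 and a sum of 795.5 to 916.1 TPM in sham and 917.9 to 1784 TPM in TBI libraries. The part of these shifts in the levels of *Treh* and *Tret1-1* was not tested.

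Over all 3 days *Treh* was lower by 0.52 on the log2 scale (SE 0.10), with an adjusted p of 0.0675, and *Tret1-1* by 0.40 (SE 0.08), with an adjusted p of 0.0678 (limma, mean of the 3 within-day effects over 17 libraries). Both were past the threshold of the adjusted p and under that of the fold. With replicate 1, 2 or 3 left out, the adjusted p was 0.159 to 0.268 for *Treh* and 0.134 to 0.409 for *Tret1-1*, and without the sham library of day 3 and the TBI library of day 7 that held midgut enzymes it was 0.154 and 0.146, at log2 fold changes of −0.48 and −0.40. The mean for *Ldh* was 0.71 (SE 0.22, adjusted p = 0.200). In limma 0 of 10 genes were called, against 0.805% of 12665 genes, and 5 had an unadjusted p under 0.05, as did 1799 of the 12665. *Treh* was called with either scaling of the libraries, at −0.62 on the log2 scale with median-of-ratios factors, and 4 of the 14 glial markers had a lower log2 fold change than *Treh* in the unscaled fit.

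Whether the effect of TBI differed between days was tested itself. Between days 1 and 3, 0 of the 10 genes were called, 3 had an unadjusted p under 0.05, as did 1620 of 12446 genes, and 0.0161% of these were called (limma). The effect on *Tret1-1* was 0.68 lower on day 1 than on day 3 on the log2 scale, with an adjusted p of 0.210. Between days 1 and 7, 0 of the 10 were called, 1 had an unadjusted p under 0.05, namely *Ldh*, as did 475 of 12493 genes, and 0.04% of these were called (limma). A difference between days in the response of these genes was therefore not shown.

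The sham libraries were also compared between days. Against day 1, limma called 0 of the 10 genes on day 3, where 0.0168% of all genes were called, and 0 of 10 on day 7, where again 0.0168% were. An unadjusted p under 0.05 was reached by 2 of the 10 on day 3 and by 2 on day 7, and by 437 and 386 of the 11939 genes tested. *Tret1-1* was among these on both days, with log2 fold changes of −0.42 and −0.38. The others were *Hex-A* on day 3 (−0.35) and *Gapdh1* on day 7 (−0.32). All 14 glial markers were lower than on day 1 in the sham flies of both later days, with medians of −0.45 and −0.42. Age and time of handling cannot be told apart in these libraries.

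Ratios within a library do not depend on how a library is scaled. *Ldh* came to 2.79%, 2.41% and 1.90% of *Pyk* in the sham libraries of day 1 and to 6.29%, 8.97% and 8.02% in the TBI libraries. Every TBI library of day 1 lay above every sham library in this ratio, and the means were 2.37% and 7.76%. On day 3 the ratio was 1.46% to 3.84% in sham and 2.10% to 5.55% in TBI, with overlap, and on day 7 it was 2.12% to 2.57% in sham and 2.5% to 3.27% in TBI, with overlap.

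*Treh* came to 93.7% to 138% of *Hex-A* in sham and 80.2% to 104% in TBI libraries of day 1. The groups overlapped on that day and on days 3 and 7. The ratio of *Tret1-1* to *Treh* also overlapped, with 81.1% to 115.2% in sham and 86.4% to 103% in TBI libraries of day 1. The copies of *Gapdh* did so as well, with *Gapdh1* at 116% to 138% of *Gapdh2* in sham and at 120% to 135% in TBI libraries of day 1. The widest spread of this ratio was between the TBI libraries of day 7, at 84.7% and 139%.

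**Figure D4:**
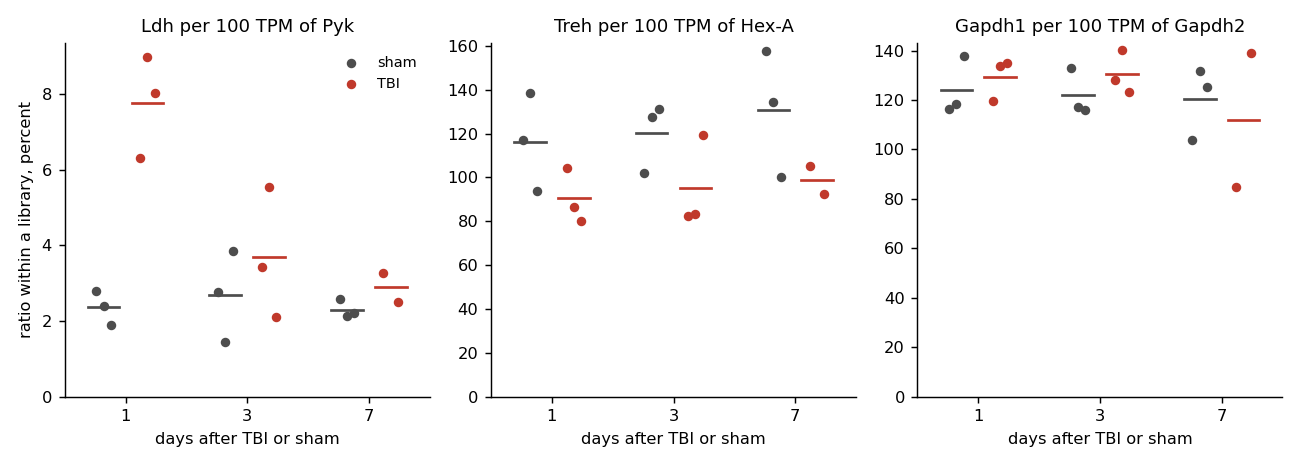
Ratios of TPM within each library, in percent, for *Ldh* to *Pyk*, *Treh* to *Hex-A* and *Gapdh1* to *Gapdh2*. The x axis gives days after injury, points are libraries (grey sham, red TBI) and short bars are group means. *Ldh* to *Pyk* is 6.29% to 8.97% in the TBI libraries of day 1 and 1.90% to 2.79% in the sham libraries, and the other ratios overlap between groups on day 1.

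Over the 17 libraries the levels of the 10 genes varied together in part. These correlations are descriptions, since libraries share their day and their injury. The highest was between *Pgi* and *Pyk* (r = 0.789), *Gapdh2* and *Treh* had r = 0.697, and *Treh* and *Tret1-1* had r = 0.676. *Ldh* went the other way, with r = −0.469 to *Pyk*, −0.468 to *Tret1-1* and −0.467 to *Treh*. With the mean of each group removed, the highest were *Pfk* with *Tret1-1* (r = 0.740) and *Gapdh1* with *Pyk* (r = 0.703). *Pgi* and *Pyk* were then at r = 0.531, *Gapdh2* and *Treh* at 0.548, and *Treh* and *Tret1-1* at 0.259. *Ldh* then no longer went the other way, with r = −0.015 to *Pyk*, 0.195 to *Tret1-1* and 0.181 to *Treh*. Its highest value was 0.520, to *Pgi*.

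Many genes outside the pathway were more alike to the 3 genes that moved most. Among 5349 genes with a mean of at least 10 TPM, those most like *Treh* over the 17 libraries were *CG31974* (r = 0.957), *Pp1-87B* (0.935), *wtrw* (0.918), *CG7966* (0.915) and *Sps2* (0.910). *Tret1-1* was most like *CG5850* (0.925), *Slc45-1* (0.904), *ltl* (0.875), *Cyp28d1* (0.868) and *CG7220* (0.860). *Ldh* was most like *Mmp1* (0.871), *Swim* (0.867), *Socs36E* (0.840), *CG16978* (0.816) and *rgn* (0.810). *Tret1-1* ranked 235 among the genes most like *Treh*.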

How the data were processed

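Gene expression was measured by TRAP-seq in 17 libraries. The authors amplified the pulled-down RNA, sequenced it as single-end reads, quantified transcripts with Kallisto and added them up per gene with tximport, and deposited TPM, a relative level scaled for transcript length and library total. Their own tests used estimated counts, which were not used here. The table lists 13479 genes, 814 of them at 0 in every library. Coordinates are those of the Ensembl annotation of the BDGP6 build. Some genes of the lists were not found by name and were not analysed here.

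TBI and sham were compared on log2(TPM + 1) with limma 3.58.1 under R 4.3.3, with a trend on expression, over the genes that were above 0 TPM somewhere in the fit, and p-values were adjusted over all of them by the Benjamini-Hochberg method. The thresholds follow the study's methods, which also describe a correction for replicates. Here a replicate block, a term for the replicate number, was used on days 1 and 3 and left out on day 7, where the study's tables showed no sign of such a term, and the day 7 fit with it was an alternative. The genes followed and the lists were chosen with earlier results of these data known. From the other lists, genes called in a TBI comparison and the 2 most abundant of each sugar list are named, with the 5 genes most like *Treh*, *Tret1-1* and *Ldh*. Of the other lists, hemocyte (8 genes) and fat body markers (4 or 5 tested per fit) had 0 calls in limma after TBI. They had 1 and 3 unadjusted p under 0.05 in the 4 TBI fits, in which 4.21% to 18.2% of all genes tested did. The muscle marker *sls* was called higher over all days. Alternatives changed the block, scaling, pseudocount, minimum TPM, thresholds and libraries. Plots were made in Python 3.11.15 (matplotlib 3.10.9).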

Additional observations from a re-analysis of the deposited data

How the results depend on the processing

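Direction and call were recomputed for each of the 10 genes in every TBI fit, and 473 of 520 alternative values kept both. On day 1 the number of the 10 genes called went from 2 to 0 at stricter thresholds (1 on the log2 scale, adjusted p 0.05). At these, 132 of all 12085 genes were called. The number went to 1 (*Tret1-1*) with a pseudocount of 5 (231 of 12085 genes) and to 1 (*Tret1-1*) in a joint fit of all 17 libraries (165 of 12665 genes). Without replicate 1, 2 or 3 it went to 0 (range 0 to 0), beside 214 of 11571, 10 of 11737 and 72 of 11935 genes. Over all days it went from 0 to 2 (*Treh* and *Tret1-1*) with no minimum fold (170 of 12665 genes). It went to 1 (*Treh*) with median-of-ratios scaling (122 of 12665) or upper-quartile scaling (133 of 12665). The cause was not tested. All 12 alternatives left 9 of 10 genes lower on day 1.

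Directions turned only where a gene was not called. With median-of-ratios scaling on day 7, *Pgi* went to −0.30, *Pfk* to −0.23, *Gapdh2* to −0.30 and *Pyk* to −0.21, and with upper-quartile scaling to −0.30, −0.23, −0.30 and −0.21; the median of all genes was then 0.044 in place of 0.23. Without the replicate block and the sham library of day 3 with midgut enzymes, an alternative chosen after seeing the data, *Pfk* on day 3 went to −0.032. With libraries left out, the ranges on day 3 were −0.18 to 0.18 for *Hex-A*, −0.12 to 0.051 for *Pgi*, −0.19 to 0.024 for *Tret1-1* and −0.087 to 1.06 for *Ldh*. On day 7 they were −0.30 to 0.022 for *Hex-A*, −0.069 to 0.15 for *Pgi*, −0.078 to 0.30 for *Pfk*, −0.74 to 0.32 for *Tpi*, −0.39 to 0.17 for *Gapdh1*, −0.11 to 0.061 for *Gapdh2* and −0.19 to 0.43 for *Pyk*, and over all days *Pyk* ranged from −0.17 to 0.018 without a replicate and was at 0.035 without the sham library of day 3 and the TBI library of day 7 that held midgut enzymes.

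Nothing in the labels says what the replicate numbers share. The replicate block of days 1 and 3 still compares libraries of the same number with each other, although not every such pair deviated together. Day 7 had no block in its main fit. The deviations of same-numbered libraries correlated at 0.376, 0.004 and 0.216 on day 1, 0.451, 0.143 and −0.029 on day 3, and 0.224 and 0.124 on day 7. The libraries numbered 1 stood apart from the rest in both groups: the deviations of 6 of 6 were, on average, most like those of the libraries numbered 1 in other groups, as against 3 of 11 others for their own number. For the TBI library of day 7 the margin was small, with a mean r of 0.090 to number 1 and 0.070 to number 2. Its group holds 2 libraries, whose deviations mirror each other. The rest of those numbered 1 had a mean r of 0.252 to 0.378 to their number. *desat1*, chosen after its values were seen, was at 1357 to 1902 TPM in the 6 libraries numbered 1 and at 602.5 to 1134 TPM in the other 11. Without the replicate block 2 genes were called on day 1, again *Ldh* and *Tret1-1*, among 361 genes in all. With the block on day 7, *Pgi* was at −0.048, *Pfk* at −0.078 and *Gapdh2* at −0.065, and 0 of the 10 and 0 of all 11966 genes tested were called.

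The count of all genes called on day 1 lay between 10 (without replicate 2) and 684 (mean of at least 1 TPM), and over all days between 0 (without replicate 3) and 564 (without replicate 2), against 346 and 102. On day 7 it was 628 without replicate 2 and 85 without TBI replicate 1, against 0, but these fits hold 1 TBI library, which is assumed to vary like the sham libraries.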

Other observations

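Genes of glycogen and glycerol 3-phosphate were compared across days. Of the 6 genes that could be tested, 5 were lower 1 day after TBI and 6 of 6 were higher on day 3 and on day 7, none of them called. The list median on day 7 was 0.28, beside 0.23 over all genes tested on that day. Of the 5349 genes with a mean of at least 10 TPM, 59.5% were lower on day 1, 48.5% on day 3 and 27.4% on day 7. In the limma test of days 1 and 3 against each other, 0 of 6 were called and 5 had an unadjusted p under 0.05, as did 1620 of the 12446 genes tested. *GlyP*, which encodes glycogen phosphorylase, was at 155.4, 150.6 and 130.8 TPM in sham and at 124.3, 109.6 and 102.0 TPM in TBI libraries of day 1, and at 141.1, 149.0 and 135.3 TPM in sham and 159.1, 148.2 and 166.3 TPM in TBI libraries of day 3. The TBI libraries lay below sham on day 1 and overlapped with sham on day 3. *Tps1*, the trehalose synthase, had log2 fold changes of −0.35 on day 1, 0.52 on day 3 and −0.12 on day 7, with adjusted p of 0.180, 0.818 and 0.825 (limma).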
